A study of Mus musculus with 48 samples.

Results

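The frontal cortex (FCT) and a second cortical area that the labels call cortex (CT) were compared within each mouse, to describe how the transcriptomes of 2 neocortical areas of interest (AOIs) on 1 section differed and whether the difference was found in every group of mice. The pairs comprised 24 of the 48 AOIs of the series, 12 in FCT and 12 in CT, and each of the 12 mice gave 1 AOI of either kind. The other AOIs lay in the hippocampus, in the CA fields (CA) and the dentate gyrus (DG), and served here only as a scale. All mice were C57BL/6 males, with an age of 10 weeks at launch and not at tissue collection. They flew for 35 days on the International Space Station (FLT) or were kept as ground controls (GC) in flight hardware cages, and they received saline (SAL) or BuOE, the manganese porphyrin MnTnBuOE-2-PyP5+, which mimics superoxide dismutase. BuOE was injected subcutaneously at 1 mg/kg in 0.2 mL, first 7 days before launch and weekly afterwards. Each of the 4 groups, named GC-SAL, FLT-SAL, GC-BuOE and FLT-BuOE, held 3 mice. Flight mice arrived in the laboratory within 20 h of splashdown, and the ground protocol ran 3 days behind the flight protocol. All mice therefore shared strain, sex, age at launch and cages, and no group was left without injection. One group filled one slide with its 3 mice, and effects of slide and of group cannot be told apart, whereas FCT and CT of a mouse came from the same slide.

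The neocortex is built from layers of excitatory neurons. Neurons of layers 2 and 3 project mainly to other cortical areas, layer 4 receives input from the thalamus, layer 5 projects to subcortical targets, and layer 6 sends axons back to the thalamus. Areas differ in the thickness of these layers, with a thin layer 4 or none in frontal areas of the mouse and a thick layer 4 in sensory areas, and in graded expression of patterning genes set up during development. In digital spatial profiling (DSP), an AOI pools all cells under a drawn outline, so that fewer cells of a type and less RNA per cell cannot be told apart.

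The AOIs of FCT and CT held 484300 to 1579380 deduplicated counts, and Q3 normalization by the authors brought the upper quartile of every AOI to the same value. In these Q3-normalized counts, negative controls, probes without a target in the mouse transcriptome, lay between 12.1 and 18.0 in FCT and between 13.3 and 16.8 in CT. Nuclei were denser in FCT than in CT in 11 of 12 mice (mean log2 ratio 0.31 ± 0.47 SD, n = 12 mice, two-sided exact permutation test over signs, p = 0.000977). The CT AOI of GC-SAL mouse 1 stood apart with 140 nuclei, or 0.957 per 1000 square μm, where the other 23 AOIs ranged from 2.25 to 3.26. Without this mouse, a fit added after seeing the data, the mean log2 ratio of nuclear density was 0.18 ± 0.12 SD (n = 11 mice, exact permutation test, p = 0.00195). With the FCT to CT ratio of the number of nuclei, not their density, as a covariate, 16 genes were again called. CT outlines were larger than FCT outlines in 8 of 12 mice, equal in 1 (GC-SAL mouse 1) and smaller in the 3 FLT-BuOE mice.

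Both regions carried the markers of neocortex. The median Q3-normalized count of Tbr1, a transcription factor of deep layer neurons, was 46.4 in FCT and 43.5 in CT, against 24.2 in CA and 27.2 in DG. Prox1, the marker of dentate granule cells, was at 31.3 in FCT and 26.9 in CT, against 111 in DG. Fibcd1, a marker of CA1 pyramidal cells, was at 22.7 in FCT and 21.8 in CT, against 97.0 in CA. The cortical labels held for both regions at the level of these markers, none of which separates a frontal from another cortical area.

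FCT and CT were close to each other. Differences are given as FCT minus CT on the scale of log2(Q3-normalized count + 1), on which changes of genes near background are understated, and a positive value means higher in FCT. With the mouse as a block in limma, 16 of 15782 genes passed an adjusted p (Benjamini-Hochberg) below 0.05 together with a difference beyond 1.5-fold. Of these, 9 were higher in FCT (0.057% of genes tested) and 7 were lower (0.0444%). The same test between DG and CA called 647 genes (4.1%). Between a cortical and a hippocampal region, the counts were 517 for FCT and CA, 628 for CT and CA, 717 for FCT and DG, and 913 for CT and DG, so FCT and CT had the fewest differences among the 6 pairs of regions. By adjusted p alone, without the fold threshold, 86 genes were higher in FCT (0.545%) and 170 were lower (1.08%), with a median size of 0.34 log2 units. The difference had 1 sign in all 12 mice for 25 genes higher in FCT (0.158%) and for 48 genes lower in FCT (0.304%). The median over all genes was 0.0036. Without GC-SAL mouse 1, 15 genes passed both thresholds, 12 of them among the 16, and without GC-SAL mouse 3 the genes lower in FCT numbered 12. By adjusted p alone the genes higher in FCT numbered 55 without GC-SAL mouse 1 and 55 without FLT-SAL mouse 1, and those lower in FCT numbered 135 without GC-SAL mouse 1, 112 when FLT-SAL mouse 3 was left out and 278 when GC-SAL mouse 3 was.

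The 9 genes higher in FCT were Nnat, Hs3st4, Col5a1, Atp2b4, Cpne7, Nxph3, Rprm, Dgkg and Gadd45a, and the 7 lower in FCT were Vstm2l, Nell1, Cpne9, Scn4b, Adam33, Inf2 and Cacna2d3. Hs3st4 and Col5a1 among the former, and Nell1 and Cpne9 among the latter, had their sign in every one of the 12 mice. The remaining called genes were named with their values in view, since there were few of them. The promoters of these 4 genes are shown because they are the genes on which all 12 mice had the same direction. The sequences come from RefSeq on GRCm38.p6 and run from 250 bases before to 50 bases after an annotated start, which need not be the outermost start of the gene, 5′ to 3′ on the strand of the gene, which is the plus strand in each case. The Hs3st4 window is chr7:123982578-123982877, that of Col5a1 chr2:27886175-27886474, that of Nell1 chr7:49975100-49975399, and that of Cpne9 chr6:113282057-113282356. Capitals mark the E-box CANNTG, the letters bound by the bHLH factors of neurons.
Hs3st4: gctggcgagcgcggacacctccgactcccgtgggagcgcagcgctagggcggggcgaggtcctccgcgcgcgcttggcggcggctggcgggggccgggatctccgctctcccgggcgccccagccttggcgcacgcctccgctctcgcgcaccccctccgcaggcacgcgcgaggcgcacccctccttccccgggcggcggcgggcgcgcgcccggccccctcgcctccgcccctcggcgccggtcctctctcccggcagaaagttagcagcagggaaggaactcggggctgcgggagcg
Col5a1: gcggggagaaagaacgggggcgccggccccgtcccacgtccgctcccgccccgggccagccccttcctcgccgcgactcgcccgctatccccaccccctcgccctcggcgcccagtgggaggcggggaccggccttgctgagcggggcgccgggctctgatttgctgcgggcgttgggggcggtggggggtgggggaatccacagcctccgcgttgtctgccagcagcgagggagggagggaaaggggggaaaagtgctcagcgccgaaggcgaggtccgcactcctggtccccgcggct
Nell1: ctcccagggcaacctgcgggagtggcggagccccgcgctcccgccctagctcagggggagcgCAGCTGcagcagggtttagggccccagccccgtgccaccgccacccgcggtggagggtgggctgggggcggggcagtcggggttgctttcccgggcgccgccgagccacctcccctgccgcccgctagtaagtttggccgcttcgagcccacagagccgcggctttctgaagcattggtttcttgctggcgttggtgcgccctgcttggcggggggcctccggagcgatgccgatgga
Cpne9: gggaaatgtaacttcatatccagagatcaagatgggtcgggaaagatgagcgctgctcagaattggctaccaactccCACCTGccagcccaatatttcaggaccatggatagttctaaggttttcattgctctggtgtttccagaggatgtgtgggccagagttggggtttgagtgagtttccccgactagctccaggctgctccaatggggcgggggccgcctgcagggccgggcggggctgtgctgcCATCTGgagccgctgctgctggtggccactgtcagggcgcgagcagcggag
The window held 0 E-boxes in Hs3st4 and Col5a1, 1 in Nell1 and 2 in Cpne9, searched on both strands, and 72.3% of the 32851 promoters of this length hold at least 1. The windows held 47, 34, 28 and 11 CpG dinucleotides in the order above, against a median of 7. A match or its absence describes these letters only.

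**Figure D1:**
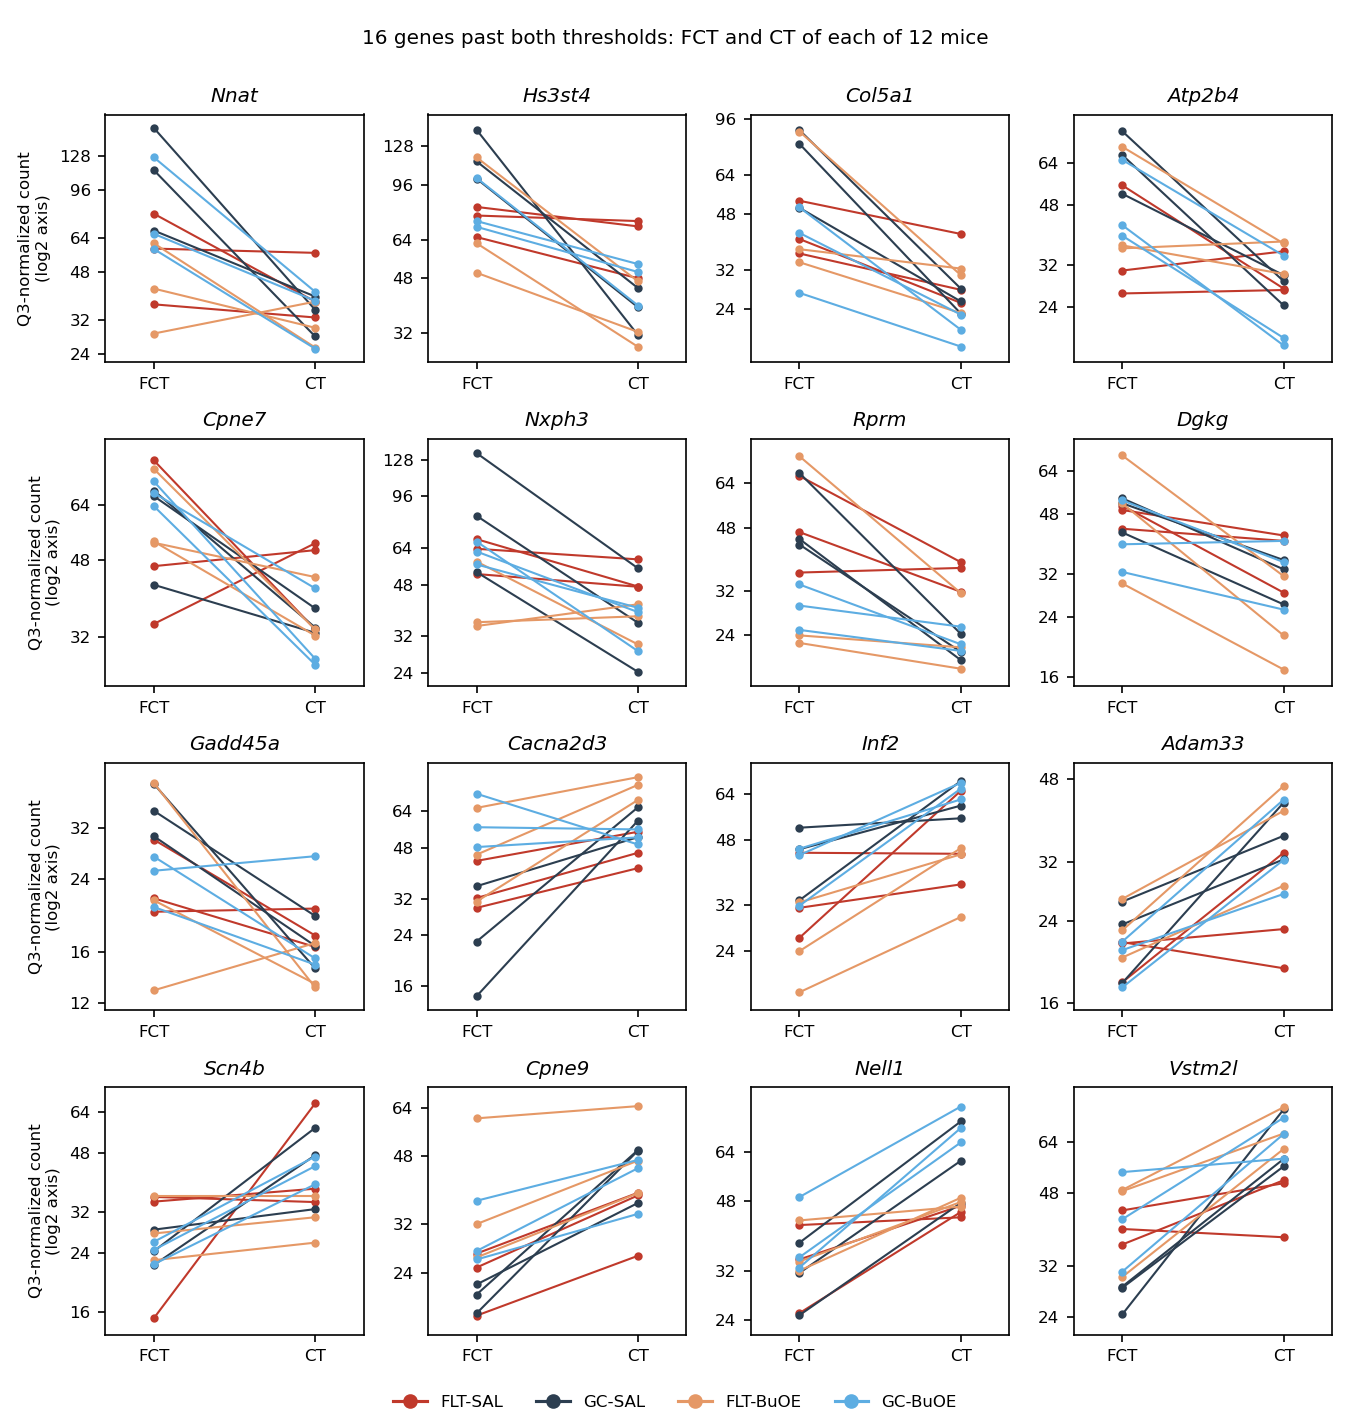
Q3-normalized counts (y axis, log2 scale) of the 16 genes past both thresholds in FCT and CT (x axis), with 1 line for each of the 12 mice, coloured by group. All 12 lines fall from FCT to CT for Hs3st4 and Col5a1 and all 12 rise for Nell1 and Cpne9, while the other panels each have 1 to 3 lines that run the other way.

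Hs3st4, which encodes a heparan sulfate 3-O-sulfotransferase and marks layer 6 neurons, lies on chromosome 7 from 123982366 to 124398989. Its Q3-normalized count in FCT had a lowest value of 50.03, a median of 79.0 and a highest value of 144 over 12 mice, whereas CT had values of 28.9, 45.8 and 73.4. The ranges overlapped between mice, but within every mouse FCT was above CT. The difference was 0.90 (standard error 0.085, limma adjusted p = 2.98e-11). Col5a1, the alpha 1 chain of type V collagen, lies on chromosome 2 from 27886381 to 28039510. Its counts were 27.04, 46.0 and 88.5 (lowest, median and highest) in FCT, and 18.3, 25.3 and 41.5 in CT. Again every mouse was higher in FCT, by 0.87 on average (standard error 0.10, limma adjusted p = 9.12e-09), although the mean in CT was only 1.80 times the negative-control value.

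Nnat had the largest difference among the genes past the adjusted p, 0.93 (standard error 0.10, limma adjusted p = 8.57e-09), and was higher in FCT in 11 of 12 mice. It encodes neuronatin, a small membrane protein whose gene is imprinted, on chromosome 2 from 157560078 to 157562525. Its counts were 28.6, 63.8 and 162 in FCT, against 25.2, 36.2 and 56.5 in CT. The spread between mice was wider in FCT. Atp2b4, a calcium pump of the plasma membrane, differed by 0.72 (standard error 0.10, limma adjusted p = 1.28e-06), with counts of 26.3, 46.8 and 79.3 in FCT and 18.5, 29.2 and 37.4 in CT. Hs3st4, Col5a1, Nnat and Atp2b4 passed both thresholds without each mouse in turn and under each of the 12 other settings tried. Rprm, a mediator of cell cycle arrest that also marks layer 6 neurons, was higher by 0.61 (11 of 12 mice), and Nxph3, a neurexin ligand, by 0.61 (10 of 12 mice). Cpne7, a calcium-dependent phospholipid-binding protein, was higher by 0.67 (10 of 12 mice), Dgkg, a diacylglycerol kinase, by 0.60 (11 of 12 mice), and Gadd45a, a stress-induced gene, by 0.60 (9 of 12 mice). Gadd45a was close to background, at 1.91 times the negative-control value in FCT and 1.16 times in CT. These 5 calls rested on the fold threshold in single mice. Cpne7 was at 0.54 without FLT-SAL mouse 3. Nxph3 was at 0.58 without FLT-SAL mouse 1, 0.52 without FLT-BuOE mouse 3 and 0.56 without GC-BuOE mouse 3. Dgkg was at 0.55 without FLT-SAL mouse 3, 0.58 without FLT-BuOE mouse 2 and 0.56 without GC-BuOE mouse 2. Rprm was at 0.57 without GC-SAL mouse 1, at 0.56 when FLT-SAL mouse 2 was left out, 0.52 without FLT-BuOE mouse 3 and 0.58 without GC-BuOE mouse 2, and Gadd45a at 0.55, 0.55, 0.48 and 0.55 without FLT-SAL mouse 2, GC-SAL mouse 1, FLT-BuOE mouse 3 and GC-BuOE mouse 3. In all of these the adjusted p stayed below 0.05.

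On the other side, Nell1 encodes a secreted glycoprotein with EGF-like domains, on chromosome 7 from 49975350 to 50863289. Its counts were 24.7, 34.0 and 49.1 in FCT and 43.7, 48.3 and 83.1 in CT (lowest, median and highest), and CT was above FCT in each mouse. The difference was -0.68 (standard error 0.086, limma adjusted p = 1.65e-07). Cpne9, a copine like Cpne7, lies on chromosome 6 from 113282283 to 113305571, with counts of 18.6, 26.1 and 60.0 in FCT and 26.5, 41.6 and 64.6 in CT. Its difference was -0.62 (standard error 0.094, limma adjusted p = 8.5e-06), and it was -0.58 without GC-SAL mouse 2. The copines thus stood on opposite sides, Cpne7 higher and Cpne9 lower in FCT. Vstm2l, a gene of the immunoglobulin superfamily, differed by -0.70 (standard error 0.089, limma adjusted p = 1.99e-07) and was lower in FCT in 11 of 12 mice. Nell1 and Vstm2l passed without each mouse and under each of the 12 other settings. Ion channel subunits were among the remainder. Scn4b, an auxiliary subunit of voltage-gated sodium channels, had a difference of -0.61, and Cacna2d3, an auxiliary subunit of calcium channels, had a difference of -0.59. Adam33, a metalloprotease, had -0.60, and Inf2, a formin, -0.59. Without single mice these 4 missed the fold threshold. Scn4b was at -0.44, -0.58 and -0.57 without FLT-SAL mouse 3, GC-SAL mouse 1 and GC-SAL mouse 2. Adam33 was at -0.53, -0.54, -0.57 and -0.57 without mouse 1 of FLT-SAL, mouse 3 of GC-SAL, mouse 1 of FLT-BuOE and mouse 1 of GC-BuOE. Inf2 was at -0.52 without GC-SAL mouse 2, at -0.49 when FLT-SAL mouse 3 was left out, -0.56 without FLT-BuOE mouse 2 and -0.55 without GC-BuOE mouse 2. Cacna2d3 ran from -0.68 to -0.51 and missed the threshold in 8 of the 12 fits without a mouse. With a pseudocount of 5 in place of 1, 7 of the 16 genes passed both thresholds, and with DESeq2 Gadd45a (adjusted p = 0.126) and Scn4b (adjusted p = 0.0861) missed the adjusted p.

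Some genes of layer 6 were higher in FCT, and some of layers 2 and 3 were lower. Of 12 measured genes of the layer 6 list, 5 passed the adjusted p and all 5 were higher in FCT, namely Hs3st4, Rprm, Syt6, Garnl3 and Crym, where 0.545% of all genes passed in that direction. With edgeR 5 of the list passed and with DESeq2 2, against 339 and 73 of all 15779 genes in those fits. Over the 12 the median difference was 0.21, against 0.0036 over all genes, and 11 were above zero. Crym, a thyroid hormone-binding protein, was higher in FCT in 12 of 12 mice (0.41, standard error 0.080, limma adjusted p = 0.000801), and Garnl3, a GTPase-activating protein, was higher by 0.42 (limma adjusted p = 0.000939). Syt6, a synaptotagmin, was higher by 0.47 (limma adjusted p = 0.0081) and missed the threshold without GC-SAL mouse 1 (adjusted p = 0.054) or GC-BuOE mouse 3 (adjusted p = 0.084). The summed level of the layer 6 list ran from 320 to 665 in FCT and from 308 to 471 in CT, and it was higher in FCT in 11 of 12 mice.

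Of 12 measured genes of the upper layer list, 4 were lower in FCT by adjusted p (1.08% of all genes) and 0 were higher. At an unadjusted p below 0.05 limma placed 7 lower and 0 higher, against 975 lower and 742 higher among all 15782 genes. Past the adjusted p edgeR had 4 of the list and DESeq2 had 1, against 339 and 73 of all 15779 genes in those fits. The 4 were Lamp5, Pou3f2, Stard8 and Cux2. Lamp5, a membrane protein of upper layer neurons and of some interneurons, differed by -0.50 (standard error 0.084, limma adjusted p = 5.32e-05), and Pou3f2, a POU transcription factor of upper layer neurons, by -0.46 (standard error 0.092, limma adjusted p = 0.000956). Both passed without each mouse in turn, but Pou3f2 missed the threshold without the mean-variance trend in limma (adjusted p = 0.051) and with DESeq2 (adjusted p = 0.099). The transcription factor Cux2 (-0.41) missed the threshold with 1 mouse left out, at an adjusted p of 0.14 (FLT-SAL mouse 1), 0.065 (GC-SAL mouse 1), 0.053 (FLT-BuOE mouse 2) or 0.072 (GC-BuOE mouse 3). Stard8 (-0.44) missed it likewise, at 0.12 and 0.097 (FLT-SAL mouse 2 and 3), 0.087 (GC-SAL mouse 3), 0.13 (FLT-BuOE mouse 2) or 0.28 (GC-BuOE mouse 3). The median of the list was -0.23, and its summed level was lower in FCT in 12 of 12 mice, by between 0.0032 and 0.53 log2 units.

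The middle layers gave a mixed picture. Over all genes tested, 0.545% were higher and 1.08% lower in FCT by adjusted p alone. In the layer 4 list 1 of 8 genes passed, Kcnh5, a voltage-gated potassium channel, which had a difference of -0.55 (standard error 0.089, limma adjusted p = 2.97e-05), just short of the fold threshold. The canonical layer 4 genes Rorb, Rspo1 and Scnn1a did not pass. The median of the 8 was -0.06, and their summed level was lower in FCT in 8 mice and higher in 4. In the layer 5 list 3 of 15 passed. Fezf2, a transcription factor that specifies subcortical projection neurons, was higher in FCT (0.36), while Pou3f1 (-0.46) and Pcp4 (-0.32) were lower. All 3 lost the call without at least 1 mouse, Pou3f1 without FLT-BuOE mouse 3 (adjusted p = 0.056), Fezf2 in 5 of 12 fits without a mouse and Pcp4 in 8 of 12. Of the 8 genes of layer 6b and claustrum, Nr4a2, a nuclear receptor, was higher in FCT (0.45, limma adjusted p = 0.00809), except without GC-BuOE mouse 3 (adjusted p = 0.059). Unequal shares of the layers under the outlines, and unequal expression by the neurons of a layer, cannot be told apart here.

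**Figure D2:**
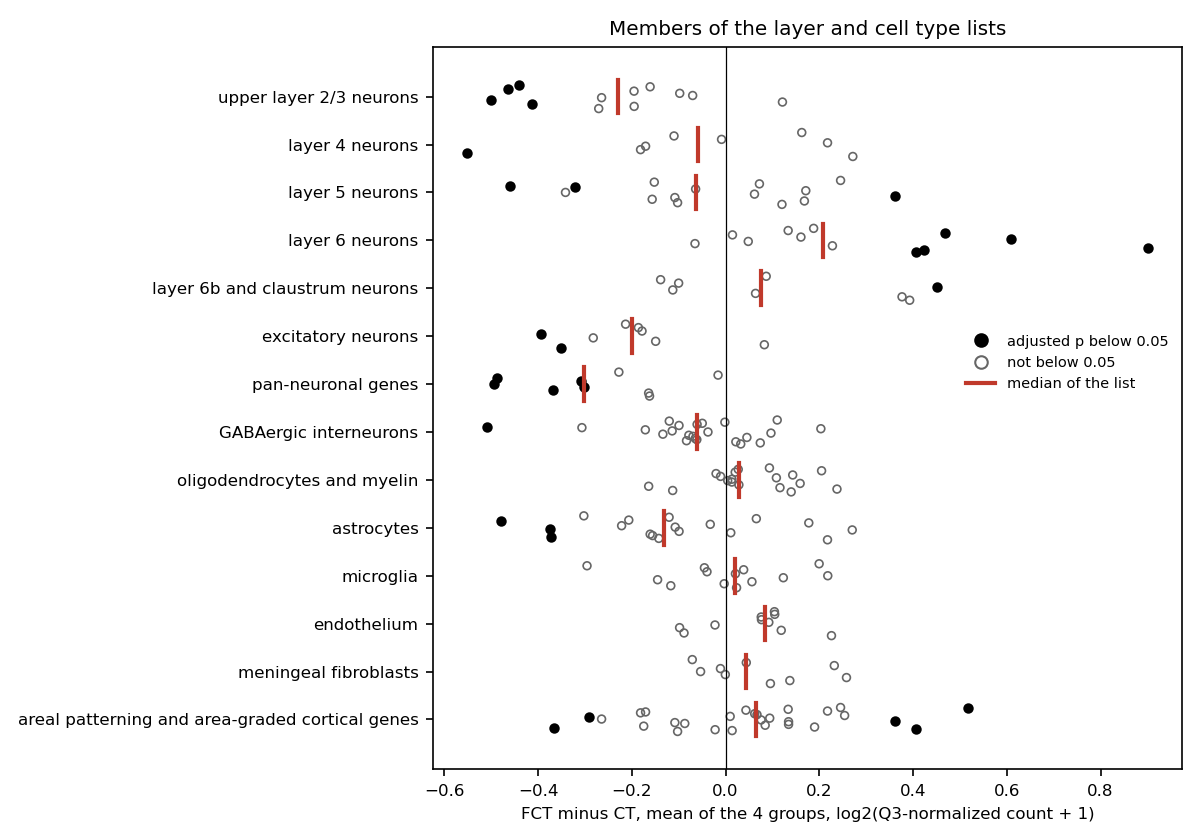
FCT minus CT (x axis, mean of the 4 groups, log2 of Q3-normalized count + 1) of each measured member of 14 gene lists (y axis), filled where the adjusted p was below 0.05, with the list median as a red bar. The layer 6 median lies at 0.21 and the upper layer median at -0.23, and the filled points of the pan-neuronal and excitatory lists all lie below zero.

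Some genes found in most neurons were lower in FCT. Of 9 pan-neuronal genes 5 passed and these were lower, against 1.08% of all genes, with 9 of 9 below zero and a median of -0.30. Syt1 (-0.02), Eno2 (-0.16), Map2 (-0.16) and Tubb3 (-0.23) did not pass, and with DESeq2 1 of the 9 passed, against 73 of all 15779 genes. Snap25, a SNARE protein of synaptic vesicle fusion, had a lower count in FCT in 12 of 12 mice, with a mean of 503 in FCT and 709 in CT (-0.49, standard error 0.066, limma adjusted p = 6.15e-07). Rbfox3, the antigen NeuN, had -0.31 and missed the threshold without FLT-SAL mouse 3 (adjusted p = 0.054) or FLT-BuOE mouse 1 (adjusted p = 0.057). The neurofilament genes Nefl (-0.30), Nefm (-0.49) and Nefh (-0.37) passed as well, but each lost the call in 3 or more of the fits without a mouse. Among 8 genes of excitatory neurons, Nrgn (-0.39) and Camk2a (-0.35), both of them calcium signaling proteins of the postsynapse, were lower in FCT in 12 of 12 mice, and both passed without each mouse. Without the mean-variance trend in limma both missed the threshold (adjusted p = 0.090 for Nrgn and 0.10 for Camk2a). The summed level of the excitatory list was lower in FCT in 12 of 12 mice, while that of the pan-neuronal list was lower in 10. This went together with the higher density of nuclei in FCT, whose part in these genes was not tested.

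Among interneuron and glial genes, Pvalb and 3 astrocyte genes passed the adjusted p. The shares over all genes were 0.545% higher and 1.08% lower in FCT. Of 23 genes of GABAergic interneurons 1 passed, Pvalb, the calcium-binding protein of fast-spiking cells, with -0.51 (standard error 0.096, limma adjusted p = 0.000464). Of 18 astrocyte genes 3 were lower in FCT. Aldoc, a glycolytic enzyme of astrocytes, was lower in 12 of 12 mice (-0.37), S100b, a calcium-binding protein, was lower in 10 (-0.48), and Gja1, the connexin of astrocytes, had -0.38 and lost the call in 7 of the 12 fits without a mouse. Of the 18 oligodendrocyte, 13 microglial, 10 endothelial, 5 mural, 9 meningeal and 8 hippocampal genes measured, 0 passed the adjusted p in limma, edgeR or DESeq2. At an unadjusted p below 0.05 in limma the counts were 3, 1, 0, 0, 2 and 1 in the same order, against 1717 of all 15782 genes. Among the 6 genes of striatal neurons Rgs9, a regulator of G-protein signaling, was higher in FCT (0.46), except without FLT-SAL mouse 3 (adjusted p = 0.11) or GC-SAL mouse 2 (adjusted p = 0.058).

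Patterning genes had differences in both directions. Of 28 measured genes known for graded or areal expression, 3 were higher in FCT (Tenm3, Crym and Fezf2) and 2 were lower (Lmo4 and Cxcl14), against 0.545% and 1.08% of all genes, with a median of 0.06. With DESeq2 0 of the 28 passed and with edgeR 5, against 73 and 339 of all 15779 genes in those fits. At an unadjusted p below 0.05 in limma 5 were higher and 3 lower, against 742 and 975 of all 15782 genes. Tenm3, a teneurin that guides axons, was higher in FCT in 11 of 12 mice (0.52, standard error 0.11, limma adjusted p = 0.00248), with means of 33.5 in FCT and 22.5 in CT. Lmo4 (-0.29) and Cxcl14 (-0.37) each lost the call in 4 or more fits without a mouse. Nr2f1, Nr2f2, Emx2 and Pax6, transcription factors that set areal gradients in the embryo, did not pass. Of 49 genes of axon guidance, 2 were higher and 3 lower. Sema3f, a secreted semaphorin, was higher in FCT in 12 of 12 mice (0.49, standard error 0.096, limma adjusted p = 0.000839), whereas Sema7a, a membrane-anchored semaphorin (-0.41), and Epha4, an ephrin receptor (-0.41), were lower in 10 mice each. Slit1, a secreted ligand of Robo receptors, was higher (0.37) and its receptor gene Robo2 lower (-0.30), but Slit1 missed the threshold without FLT-SAL mouse 1 (adjusted p = 0.062), and Robo2 missed it in 8 of 12 fits without a mouse.

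Channels, receptors and peptides had few differences, most of them lower in FCT. By adjusted p alone, 0.545% of all genes were higher in FCT and 1.08% lower. Of 48 potassium and HCN channel genes 3 passed, Kcna2 (-0.43), Kcnh1 (-0.41) and Kcnh5 (-0.55), all of which encode voltage-gated subunits. Of 34 receptor subunits for glutamate and GABA, Grik3, a kainate receptor subunit, was higher in FCT (0.48, standard error 0.084, limma adjusted p = 0.000122), and 1 was lower. Of 17 neuropeptide precursors, Cck (-0.40) and Vgf (-0.41) were lower. Of 26 immediate early and activity-regulated genes, Nr4a2 was higher and Vgf lower, and Arc, a synaptic plasticity gene, was not called (-0.08, limma adjusted p = 0.83). Over all lists, 37 members besides the genes above the fold threshold or the group test passed the adjusted p, and 20 of them did so without each mouse in turn. Without the mouse as a block 12 of the 37 missed it, with edgeR 0, with DESeq2 28 and without the mean-variance trend in limma 30. The genes that the study names first for FCT and CT are those that changed most between FLT-SAL and GC-SAL within a region, not between regions. Of these, Tshz2 (0.25), Dmrt2 (0.01), Gm9936 (0.24), Apod (0.22), Ptgds (0.04) and Mobp (0.11) were not called in the mean of the groups. Col6a1 (0.48, limma adjusted p = 0.000108) passed the adjusted p but not the fold threshold.

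The sign and the size of the difference between FCT and CT were read in each group. Of the 16 called genes, 15 had 1 sign in the group means of all 4 groups, the exception being Cacna2d3, which was at 0.16 in GC-BuOE. Among the 256 genes past the adjusted p, 228 had 1 sign in the 4 groups, against 17.5% of all genes, a share that the choice of these genes on the mean of the same groups raises. Read within each group, the same fit called 0 genes higher in FCT (0%) and 2 lower (0.0127%) in FLT-SAL, 35 higher (0.222%) and 72 lower (0.456%) in GC-SAL, 7 higher (0.0444%) and 1 lower (0.00634%) in FLT-BuOE, and 3 higher (0.019%) and 1 lower (0.00634%) in GC-BuOE. In FLT-SAL limma placed 250 genes higher and 368 lower at an unadjusted p below 0.05, or 618 of the 15782 genes tested. Where no gene differs, a share of 0.05 is expected to pass that threshold. With both thresholds edgeR called 5 genes higher and 17 lower in FLT-SAL, and DESeq2 called 0. The count in GC-SAL was 66 without its mouse 1, whose CT AOI had few nuclei, and 189 without its mouse 3, and GC-SAL still had the highest count among the groups in both fits. The count in FLT-BuOE was 17 without its mouse 2 and 1 without its mouse 3, that in GC-BuOE was 0 without its mouse 1 or 2 and 1 without its mouse 3, and that in FLT-SAL was 0 without its mouse 1 and 1 without its mouse 2. Without the mouse as a block, 66 genes were called in GC-SAL, 5 in FLT-BuOE, 3 in GC-BuOE and 0 in FLT-SAL, and 34 genes were higher and 92 lower by adjusted p alone in the mean of the groups. The groups hold different mice, so the genes called in GC-SAL can be read in the others. Of these 107 genes, 86 had the same sign in FLT-SAL, 91 in FLT-BuOE, 93 in GC-BuOE, and 68 in all groups. Of the 8 genes called in FLT-BuOE, 4 had the same sign in FLT-SAL, 7 in GC-SAL, 7 in GC-BuOE, and 3 in all groups. Among all genes 17.5% had 1 sign in the 4 groups. The share of all genes with the same sign in 2 given groups was not counted, so the pairwise counts have no background. Over the 7857 genes above 2 times background in either region, the correlation of the differences between 2 groups was 0.12 to 0.27, which is a description across genes that share slide and depth within a group.

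**Figure D3:**
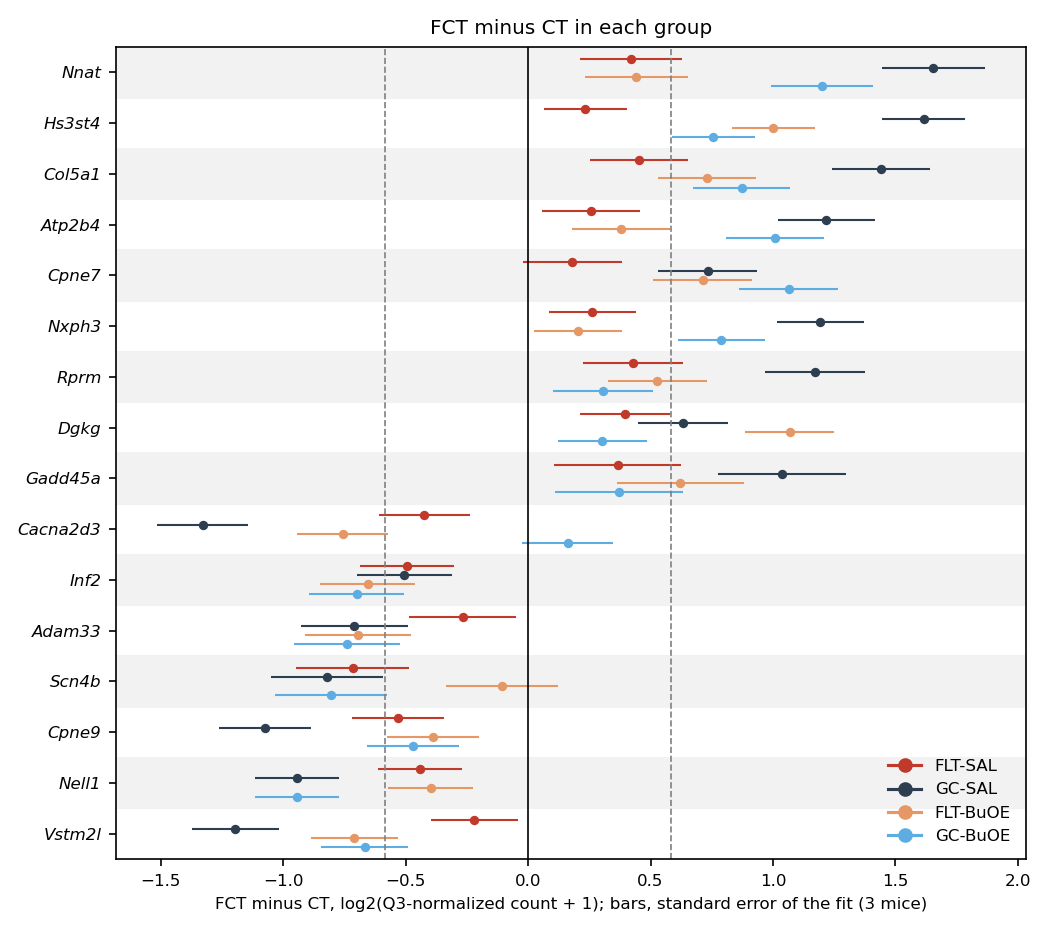
FCT minus CT (x axis, log2 of Q3-normalized count + 1, bars for the standard error of the fit) of the 16 genes past both thresholds in each of the 4 groups, with dashed lines at the fold threshold. GC-SAL lies farthest from zero for 11 of the 16 genes and FLT-SAL for 0, and Cacna2d3 in GC-BuOE is the only point across zero. The genes were chosen on the mean of these groups.

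For the called genes the largest difference lay in GC-SAL for 11 of 16 and in FLT-SAL for 0, and the smallest lay in FLT-SAL for 9. These genes were chosen on the mean of the same groups, so the tally does not test the groups. Over the genes above 2 times background, the differences also spread most in GC-SAL (SD 0.25) and least in FLT-SAL (SD 0.18). Hs3st4 was at 144, 100 and 114 in FCT of the 3 GC-SAL mice and at 31.5, 38.8 and 44.7 in their CT, a difference of 1.62. In FLT-SAL it was at 65.2, 81.5 and 76.4 in FCT and 48.03, 70.5 and 73.4 in CT, a difference of 0.23, with 1.00 in FLT-BuOE and 0.76 in GC-BuOE. The FCT and CT values of Hs3st4 did not overlap in GC-SAL and did in FLT-SAL. Nnat was at 1.65 in GC-SAL and 1.20 in GC-BuOE but at 0.42 and 0.44 in the flight groups. Col5a1 ran from 0.45 in FLT-SAL to 1.44 in GC-SAL. Inf2 was the most even, from -0.70 to -0.49, and passed in no group alone. The 2 genes called in FLT-SAL, Npcd (-0.77) and Prkar1b (-0.71), a regulatory subunit of protein kinase A, are named with their values in view. In FLT-BuOE the 8 were Scara5, Dgkg, Hs3st4, Col6a1, Junb, Crym and Tmem178, all higher in FCT, and Lamp5, lower. In GC-BuOE the 4 were Nnat, Cpne7 and Atp2b4, higher, and Nell1, lower.

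Whether the regional difference varied between the groups was tested directly with an F test on the 4 differences. It passed for 9 genes (0.057%), among them Nptx1, Mobp, Col6a1, Hs3st4, Cacna2d3, Junb, Kcnh5 and Igsf21. At an unadjusted p below 0.05 it placed 919 of 15782 genes, where a share of 0.05 is expected without any difference. Nptx1, neuronal pentraxin 1, which clusters AMPA receptors at synapses, had the lowest p. In GC-SAL it was at 308, 306 and 259 in FCT against 89.7, 164 and 122 in CT (1.25), with no overlap of the regions. In FLT-SAL every mouse was lower in FCT, at 149, 249 and 227 against 210, 271 and 281 (-0.31). The 4 differences were unequal at an F test adjusted p = 3.63e-05 in limma, and FLT-SAL minus GC-SAL was -1.56. By contrast of flight and ground among saline mice, 6 genes passed the adjusted p, namely Nptx1, Hs3st4, Igsf21, Kcnh5, Col6a1 and Tmem178. By treatment on the ground, 4 passed, among them Mobp, Cacna2d3 and Trf. By treatment in flight limma found 0, with 875 of 15782 genes at an unadjusted p below 0.05, while edgeR found 5 and DESeq2 0.

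Mobp, which encodes a protein of the myelin sheath, passed the F test, and Trf, the iron carrier transferrin, passed in the contrast of the ground groups alone. Mobp was at 289, 324 and 285 in FCT and 207, 203 and 208 in CT of GC-SAL (0.53), but at 190.4, 148 and 276 in FCT and 254, 308 and 271 in CT of GC-BuOE (-0.48). The regions did not overlap in GC-SAL and did in GC-BuOE, where mouse 2 had the lowest FCT value. The F test gave an adjusted p of 0.0129 in limma for Mobp. The summed level of the 18 myelin and oligodendrocyte genes was higher in FCT in the 3 GC-SAL and the 3 FLT-BuOE mice, lower in the 3 GC-BuOE mice, and higher in 2 of 3 FLT-SAL mice. Across mice it ran from 863 to 2446 in FCT and from 997 to 2363 in CT. The summed level of the 9 meningeal genes had the same pattern of signs in GC-SAL, FLT-BuOE and GC-BuOE, but their median difference did not. It was 0.23, -0.06 and 0.002 in these groups. The sum rested largely on Ptgds, a member of the list. In FCT of the FLT-BuOE mice Ptgds was at 252, 247 and 214, within sums of 439, 430 and 399. The part of either list in the differences of other genes was not tested. Junb, an AP-1 transcription factor, was higher in FCT in all 3 FLT-BuOE mice, at 140, 145 and 133 against 60.7, 83.4 and 77.0 in CT (0.92), with differences of -0.15, 0.04 and -0.15 in FLT-SAL, GC-SAL and GC-BuOE. Col6a1, a chain of type VI collagen, was higher in FCT by 0.96 in GC-SAL and in FLT-BuOE alike, and stood at -0.14 in FLT-SAL and 0.12 in GC-BuOE. Igsf21, a neurexin-binding adhesion molecule, ran from -0.36 in FLT-SAL to 1.05 in GC-SAL, and Kcnh5 from -1.25 in GC-SAL to 0.09 in FLT-SAL.

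The F test depended on the block and on single mice, with 4 genes without FLT-SAL mouse 2, 5 without GC-BuOE mouse 1, 15 without GC-SAL mouse 2 or 3, and 9 without GC-SAL mouse 1. With the negative-control level as a covariate, the adjusted p was 0.84 for Junb, 0.19 for Col6a1 and 0.11 for Kcnh5. In FLT-BuOE, and likewise in GC-BuOE, the negative controls were lower in FCT than in CT in all 3 mice. Their part in these genes was not tested beyond this covariate. Without the mouse as a block the F test called 0 genes in limma, with 687 of 15782 at an unadjusted p below 0.05, and DESeq2 called 1, Nptx1. Nptx1 passed without each mouse in turn. Mobp gave an adjusted p of 0.084 and 0.44 without GC-BuOE mouse 1 and 2, Col6a1 0.13 without FLT-SAL mouse 2, Junb 0.082, 0.4 and 0.07 without FLT-SAL mouse 2, FLT-BuOE mouse 1 and FLT-BuOE mouse 2, and Hs3st4 0.13, 0.094 and 0.32 without FLT-SAL mouse 2, FLT-SAL mouse 3 and GC-SAL mouse 1. Cacna2d3 missed the threshold without GC-SAL mouse 1 (0.3), GC-SAL mouse 2 (0.062), GC-BuOE mouse 1 (0.29) or GC-BuOE mouse 3 (0.052), and Kcnh5 and Igsf21 missed it in 7 of 12 such fits each. Since a group was 1 slide, group and slide, and with the slide the placing of the outlines, cannot be told apart in this test.

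**Figure D4:**
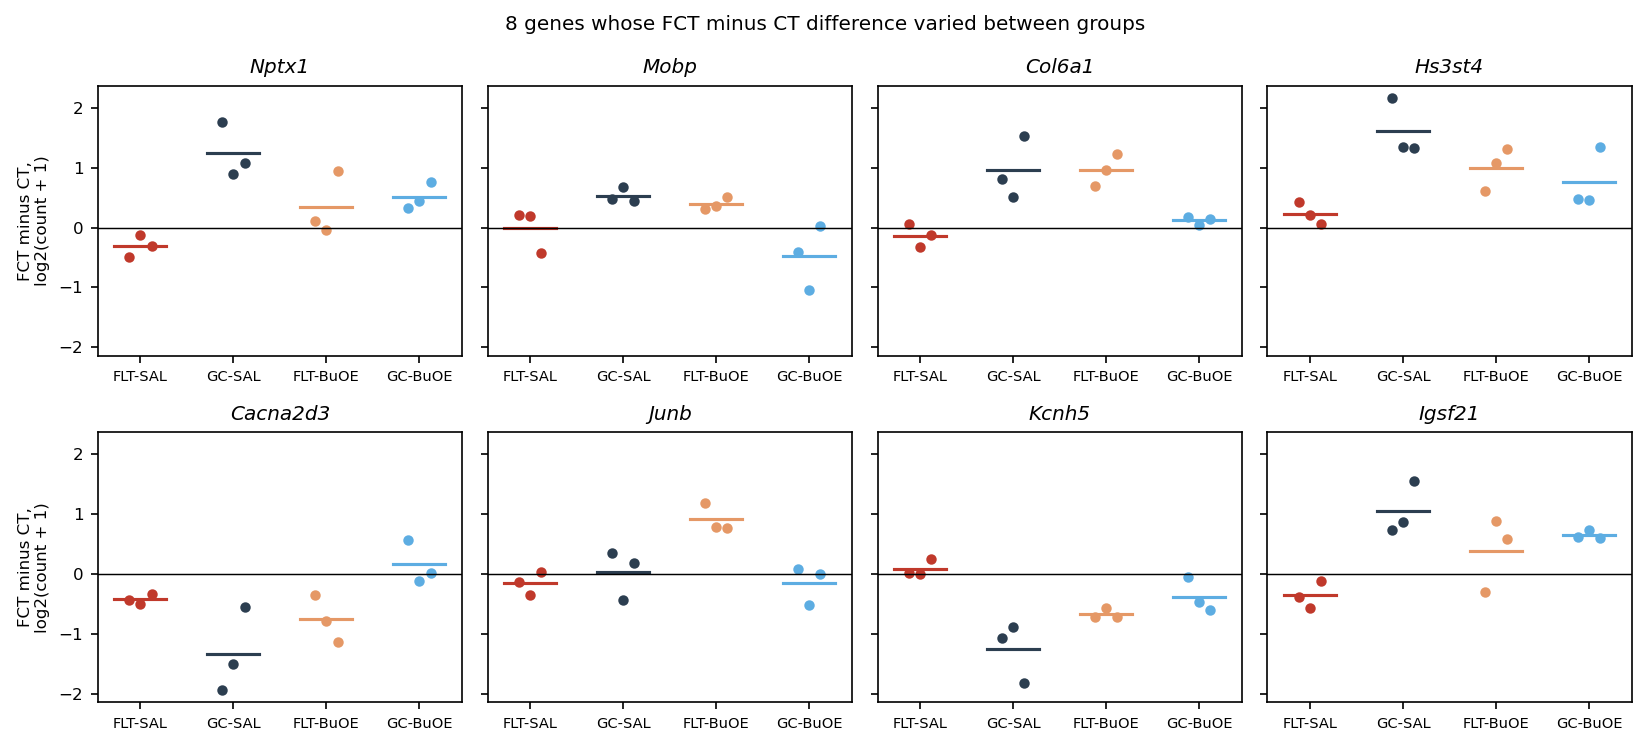
FCT minus CT (y axis, log2 of Q3-normalized count + 1) of 8 of the 9 genes that passed the F test between groups, with 1 point for each mouse and a line at the mean of each group (x axis). Nptx1 lies below zero in all 3 FLT-SAL mice and above zero in all 3 GC-SAL mice, and Junb has a group mean of 0.92 in FLT-BuOE and between -0.15 and 0.04 in the other groups.

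**Figure D5:**
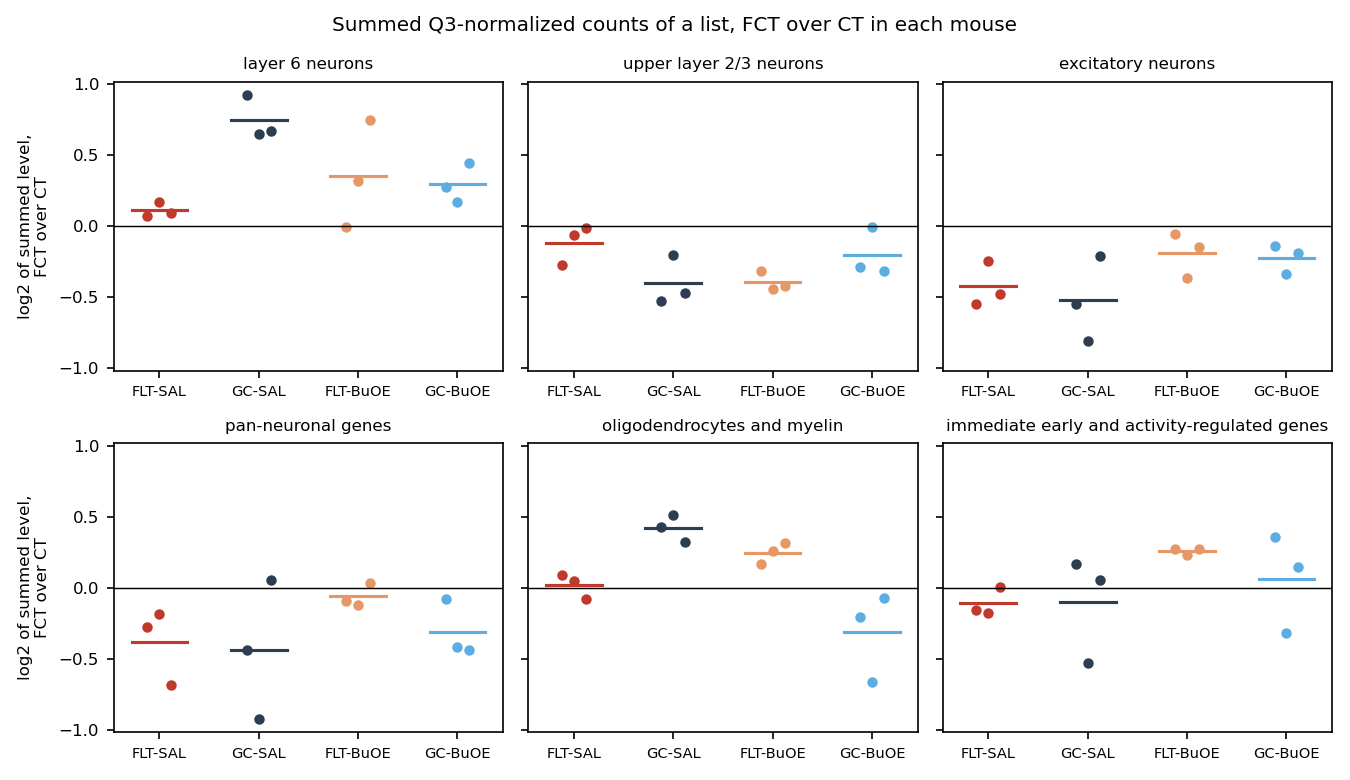
Log2 ratio of the summed Q3-normalized counts of 6 gene lists, FCT over CT (y axis), for each mouse by group (x axis), with a line at the group mean. The layer 6 list is above zero in 11 of 12 mice, the upper layer and excitatory lists are below zero in all 12, and the myelin list changes sign between GC-SAL and GC-BuOE.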

How the data were processed

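Gene expression was measured by GeoMx DSP on 1 slide per group. Reads were turned into deduplicated counts by the authors with the GeoMx NGS Pipeline (version 2.3.4, per the file headers), and raw counts of 20175 probes were deposited for each AOI. Probes, not a genome, were matched. The authors then scaled each AOI to a common upper quartile and deposited the resulting Q3-normalized signal in 1 table per region, with 15782 genes and 1 row for the negative controls. They also deposited tables of their own group comparisons (log2 fold changes with p-values), which were not used here.

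The tables of FCT and CT were joined by gene, and the AOIs of a mouse were paired by group and replicate number. Same-numbered AOIs share a slide and lie 398 to 2182 coordinate units apart on the vertical axis, against 13024 to 38308 for other mice of the slide, and the study took its regions from each brain. Deviations from the group means correlated at 0.011 to 0.22 within mice (median 0.051). Log2(Q3-normalized count + 1) was fitted with limma (3.58.1, R 4.3.3), with the mouse as a fixed block and FCT minus CT in each of the 4 groups, a mean-variance trend, 8 residual degrees of freedom and Benjamini-Hochberg adjustment over 15782 genes. The main contrast was the mean of the 4 groups, and a call needed an adjusted p below 0.05 with a difference beyond 1.5-fold, as in the study. An F test with no fold threshold compared the 4 differences. The negative-control row entered no test. The steps were tested on simulated data. As alternatives, whole counts were recovered from the Q3 tables (99.98% of values within 0.02 of a whole number) for edgeR (4.0.16) and DESeq2 (1.42.0, with independent filtering and Cook's cutoff switched off), besides other scalings, pseudocounts, covariates and mice left out. No pair of cortical AOIs compared differed by less than sampling noise (chi-square per gene 1.07 or above).

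Named genes were those called with 1 sign in all 12 mice and a mean above 2 times background in the higher region (up to 12 per direction), members of the gene lists, the 5 smallest F test p-values and genes that the study names first. A few genes that meet these rules are not reported here. The comparison, lists and tests were chosen with earlier results of these data known. P-values rest on the spread between these mice, which limma moderates with values from all genes. The prior from the mean-variance trend had 52.3 degrees of freedom, against 8 residual, so it carried most of the weight. Coordinates are those of RefSeq on GRCm38.p6, matched by symbol for all 29 genes looked up.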

Additional observations from a re-analysis of the deposited data

Results flagged for a closer look

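The regional difference of several genes varied between the groups by the F test in limma. The Benjamini-Hochberg adjusted p was 3.63e-05 for Nptx1, 0.0129 for Mobp, 0.0133 for Col6a1, 0.0134 for each of Hs3st4, Cacna2d3 and Junb, 0.0414 for Kcnh5 and 0.0440 for Igsf21.

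Groups also moved opposite ways, with all 3 mice of one group on one side of zero and all 3 of another on the other side, for genes that did not pass that F test. Arc was at -0.59 in FLT-SAL and 0.55 in FLT-BuOE (F test adjusted p = 0.218 in limma). Ptgds was at 0.48 in FLT-BuOE and -0.47 in GC-BuOE (0.160), Dmrt2 at 0.24 in FLT-SAL and -0.73 in GC-SAL (0.721), and Gm9936 at 0.24 in FLT-BuOE and -0.44 in GC-BuOE (0.272). Only the called genes and those that the study names first were searched for this pattern, and its share over all genes was not counted. Counts of Dmrt2 (11.0 to 30.0) and Gm9936 (3.64 to 29.8) lay near the negative controls (12.1 to 18.0 in FCT).

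The log2 ratio of the summed myelin list, FCT over CT, was 0.42 in GC-SAL and 0.25 in FLT-BuOE and -0.31 in GC-BuOE. That of the meningeal list, whose sum rested largely on Ptgds, was 0.16 in GC-SAL and 0.20 in FLT-BuOE and -0.19 in GC-BuOE. The median difference of its members was 0.23, -0.06 and 0.002 in these groups. These differences between groups were not tested. Groups of 3 mice, and the 12 mice together, were not tested for outlying samples.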

How the results depend on the processing

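The 3080 values compared with an alternative included gene counts and adjusted p-values, which have no direction. Among the differences, no gene called in either fit changed sign. Changes of sign in genes called in neither fit were not counted. Without the mouse as a block, limma called 66 genes in GC-SAL, 5 in FLT-BuOE, 0 in FLT-SAL (447 at an unadjusted p below 0.05) and 0 in the F test (687), and 34 genes were higher and 92 lower by adjusted p alone. With edgeR the counts were 22 in FLT-SAL, 11 in GC-BuOE and 19 in the F test. With DESeq2 they were 24 in GC-SAL, 0 in FLT-SAL (204 at an unadjusted p), 0 in GC-BuOE (146), 0 in FLT-BuOE (181) and 1 in the F test, with 22 higher and 51 lower by adjusted p alone. Without the mean-variance trend limma gave 23 in GC-SAL, 0 in FLT-SAL (492), 0 in GC-BuOE (884), 1 in FLT-BuOE and 0 in the F test (864), with 20 and 25. With a covariate for the negative-control level they were 0 in FLT-SAL (535) and 2 in FLT-BuOE. A pseudocount of 5 called 5 genes higher and 2 lower in FCT, and subtracting the background called 39 and 28, with 7192 between DG and CA. The causes were not tested. Counts at an unadjusted p are out of 15782 genes in limma and 15779 in DESeq2, where a share of 0.05 is expected without any difference. Leaving out each mouse gave 6 to 11 genes higher and 6 to 12 lower, 55 to 116 and 112 to 278 by adjusted p alone, 66 to 189 in GC-SAL, 0 to 2 in FLT-SAL, 0 to 7 in GC-BuOE, 1 to 17 in FLT-BuOE, 4 to 15 in the F test and 644 to 695 between DG and CA. Of 1789 single-gene values, 1526 kept their side of the threshold, 258 lost it and 5 gained it. Genes near the negative-control level limit what could be called.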
